A study of Mus musculus with 3 samples.

Results

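The genes described here were listed together under synthesis, transport and oxidation of the ceramides of the epidermal water barrier and ichthyosis. Not each of them has a known step in that pathway. They are Alox12b, Aloxe3, Alox12e, Nipal4, Abca12, Elovl4, Cers3, Ugcg and Smpd1. A gene was included where the array's platform annotation paired at least 1 probe set, a group of short oligonucleotides that together read a transcript, with that symbol alone. All 9 genes had such a probe set, out of 18193 genes with one, and together they had 15. Dorsal skin of 4-day-old female BALB/cA mice was measured on 3 arrays, each hybridised with biotin-labelled RNA of 1 sample. The wild type sample (uncv +/+) came from 1 mouse and the 2 uncv null samples (uncv -/-), here called null 1 and null 2 after their labels, were its sisters. All were born to heterozygous (uncv +/-) parents. No treatment is given for any of them. Uncv, or uncovered, is a spontaneous mutation with sparse or missing hair that was later mapped to Rhbdf2, which encodes iRhom2, an inactive relative of rhomboid proteases. The comparison asks how transcript levels of these genes compare between mutant and normal skin soon after birth.

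In the upper epidermis, keratinocytes build ceramides with an unusually long fatty acid that carries a hydroxyl group at its end, which is esterified to linoleic acid. These omega-acylceramides are glucosylated, loaded into lamellar granules and secreted, and lipoxygenases oxidise their linoleate so that the ceramide can be bound to the cornified envelope. Loss of several of these steps causes ichthyosis, a scaling disorder with a leaky skin barrier.

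Of the 9 genes, 4 lie on mouse chromosome 11, as does Rhbdf2. In the RefSeq gene order (assembly GRCm38.p6), Aloxe3, Alox12b and Alox8 are consecutive protein-coding genes, and Alox12, Alox12e and Alox15 form another such run. Nipal4 stands apart from both, between Adam19 and Cyfip2. RefSeq promoter windows of the same assembly, from 250 bases before to 50 after the gene's start, were found for 8 of the 9 genes, Aloxe3 being the exception. The 3 windows below belong to a lipoxygenase that lay above wild type in both null arrays, to the lipoxygenase that lay below, and to the gene with the largest difference. Capitals mark CACCC on either strand, read as GGGTG where it lies on the other strand, the core letters bound by Krüppel-like factors such as the barrier regulator Klf4.
Alox12b: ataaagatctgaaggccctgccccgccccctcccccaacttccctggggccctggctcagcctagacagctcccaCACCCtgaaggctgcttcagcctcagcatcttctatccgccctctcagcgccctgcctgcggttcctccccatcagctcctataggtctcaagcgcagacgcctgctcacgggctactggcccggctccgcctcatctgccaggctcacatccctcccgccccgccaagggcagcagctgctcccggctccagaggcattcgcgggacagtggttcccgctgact
Alox12e: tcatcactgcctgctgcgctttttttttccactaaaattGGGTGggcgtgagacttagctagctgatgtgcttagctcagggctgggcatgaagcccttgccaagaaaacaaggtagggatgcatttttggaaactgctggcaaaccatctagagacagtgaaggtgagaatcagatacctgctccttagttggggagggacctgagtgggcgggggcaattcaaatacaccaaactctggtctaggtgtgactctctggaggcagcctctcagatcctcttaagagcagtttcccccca
Nipal4: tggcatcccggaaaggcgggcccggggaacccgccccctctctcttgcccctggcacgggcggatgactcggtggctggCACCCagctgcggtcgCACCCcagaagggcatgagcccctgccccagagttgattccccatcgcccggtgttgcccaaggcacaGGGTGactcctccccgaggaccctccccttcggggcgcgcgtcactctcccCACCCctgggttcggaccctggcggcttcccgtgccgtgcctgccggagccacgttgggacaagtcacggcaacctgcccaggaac
The Alox12b window is chr11:69156822-69157121 on the plus strand, the Alox12e window chr11:70322481-70322780 on the minus strand and the Nipal4 window chr11:46166310-46166609 on the minus strand. CACCC occurs 1 time in the Alox12b window, 1 time in that of Alox12e and 4 times in that of Nipal4. It was present in 6 of the 8 windows, beside 57.5% of all 32851 windows. The GC box GGGCGG, also searched on both strands, was present in 6 of the 8 and in 35.7% of all windows. The AP-1 site TGANTCA and the TATA box TATAAA were present in 0 of the 8, and in 7.81% and 13.6% of all windows. Matches of different motifs may overlap. The 3 windows differ in base composition, with 66.0%, 50.7% and 70.7% G or C for Alox12b, Alox12e and Nipal4. A match describes the letters in the window and no binding.

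Values are deposited RMA expression values on the log2 scale, on which 1 unit is a 2-fold difference, and differences are uncv null minus wild type. Tests were limited to probe sets whose mean over the arrays reached 5, which kept 12 of the 15 probe sets and 8 of the 9 genes. Each gene is represented by its brightest probe set unless another is named. Rhbdf2 itself read 5.83 in wild type, 6.29 in null 1 and 6.49 in null 2. Whether that probe set reads the mutated part of the transcript was not looked at, so these values do not check the labels. Against wild type, the mean of the 18 hybridisation spike-ins was higher by 0.70 in null 1 and by 0.43 in null 2, whereas the median of all tested genes was higher by 0.025 and 0.066. Probe sets for 18S ribosomal RNA averaged 3.59, 7.93 and 4.26 in wild type, null 1 and null 2. In the Actb control, the signal at the 3' end was above that at the 5' end by 0.66, 1.23 and 0.79, respectively. The 18S and Actb measures set null 1 apart. Over all tested probe sets, however, null 2 was least like the others, with a Pearson's r across probe sets of 0.958 with wild type and 0.961 with null 1, against 0.972 between wild type and null 1. The probe sets are not independent replicates, and the part of all 3 measures in the values below was not tested.

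Most of the ceramide and lipoxygenase genes lay slightly above wild type in uncv null skin, by less than 2-fold, and Alox12e lay below. A positive mean difference was also found in 56.3% of all tested genes, so that sign is not particular to these genes. Of the 8 tested genes, 5 were higher in both null arrays, beside 38.8% of all 8456 tested genes. These were Alox12b, Aloxe3, Nipal4, Elovl4 and Cers3. Alox12e was lower in both, beside 26.4% of all tested genes, and Ugcg and Smpd1 differed in sign between the arrays. Against null 1 alone, with null 2 left out, 5 of the 8 genes were higher, beside 53.5% of all tested genes, and 3 were lower, beside 46.5%. The median difference over the 8 genes was 0.23, against 0.036 over all tested genes. It was 0.084 in null 1 and 0.33 in null 2, and these are also the values with the other array left out. By limma with Benjamini-Hochberg adjustment over 13559 probe sets, 0 of the 12 probe sets passed (smallest adjusted p = 0.9996), as did 0% of all probe sets. At an unadjusted p under 0.05 there were again 0 of the 12, beside 2.88% of all tested probe sets. At least 2-fold above wild type in both null arrays were 0 of the 12, beside 0.184% of all tested probe sets, and at least 2-fold below 0 of the 12, beside 0.288%. The 95% limma intervals of the 12 were between 1.27 and 2.37 log2 units wide, and all of them included 0. With 1 wild type array, its spread is assumed to be that of the null arrays. All members are read in whole skin, where fewer cells of a type and less RNA per cell cannot be told apart.

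**Figure D1:**
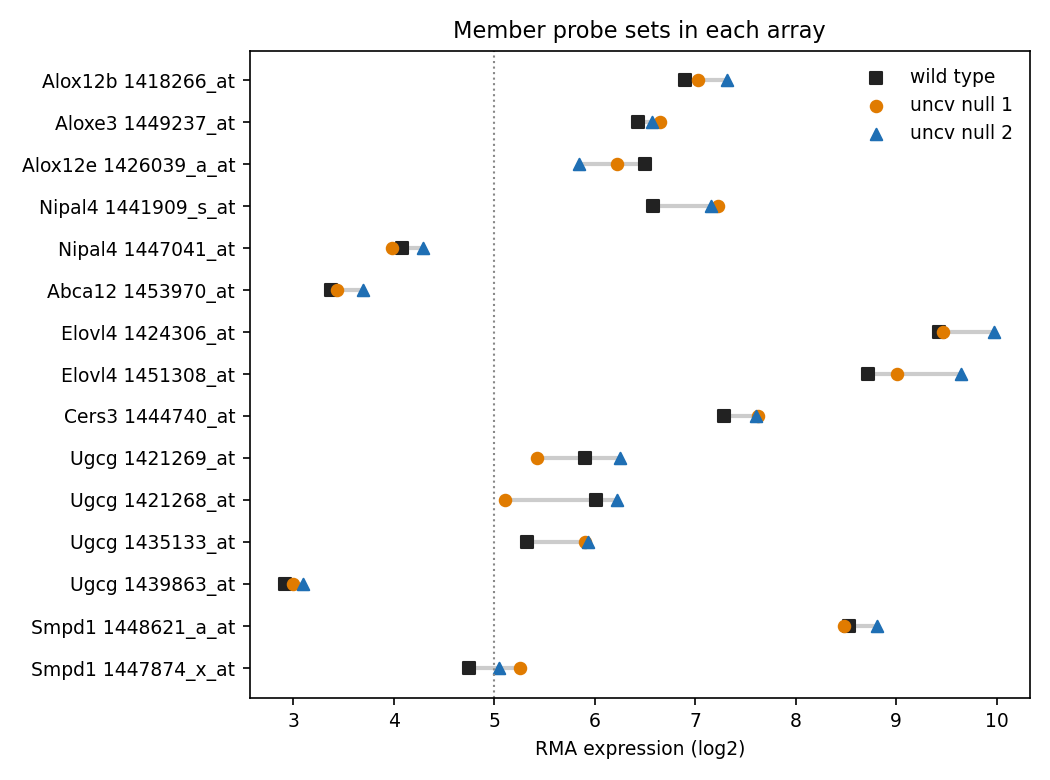
RMA expression on the log2 scale (horizontal axis) of all 15 probe sets of the 9 genes in wild type (black squares), null 1 (orange circles) and null 2 (blue triangles); the dotted line marks the minimum mean of 5 and grey bars join the lowest to the highest array. Nipal4 and Cers3 have wild type on the left and both null arrays close together, whereas in 2 Ugcg probe sets wild type lies between the null arrays.

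The lipoxygenases Alox12b and Aloxe3 act in sequence on the linoleate of omega-acylceramide, Alox12b making a hydroperoxide that Aloxe3 turns into an epoxyalcohol. Alox12b (probe set 1418266_at) read 6.90 in wild type, 7.03 in null 1 and 7.32 in null 2. Both uncv null arrays lay above wild type, and the gap between them was as large as the mean difference. That difference was 0.27 ± 0.28 (moderated SE from limma, 1 array against 2), or 1.21-fold, and did not pass (limma adjusted p = 0.9996). By single array it was 0.13 and 0.42. Aloxe3 (1449237_at) read 6.43, 6.65 and 6.57 in the same order. Its null arrays were close to each other and both above wild type, with a difference of 0.18 ± 0.26, or 1.13-fold. The interval of that difference ran from -0.46 to 0.82. Alox12e, the epidermis-type 12-lipoxygenase of the mouse, went the other way. Its probe set (1426039_a_at, a type that reads alternative transcripts of a gene) read 6.50 in wild type, 6.22 in null 1 and 5.84 in null 2. Wild type was the highest of the 3 arrays. The difference was -0.47 ± 0.29, or 0.720 times the wild type level, with an interval from -1.19 to 0.24. By single array it was -0.29 and -0.66. Alox12, the platelet-type 12-lipoxygenase gene that precedes Alox12e on the chromosome, read 5.75, 5.72 and 5.48. It was also lowest in null 2, with a mean difference of -0.15 ± 0.27. The differences between lipoxygenases were not tested against each other.

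Nipal4 encodes ichthyin, a membrane protein related to magnesium transporters whose loss causes ichthyosis. Its main probe set (1441909_s_at, a type that can also match transcripts of other genes) read 6.58 in wild type, 7.22 in null 1 and 7.15 in null 2. The uncv null arrays differed by 0.070, and both lay above wild type. The difference of 0.61 ± 0.26 (1.53-fold) had an interval from -0.028 to 1.25 and an unadjusted limma p of 0.058. It was the largest mean difference among the 12 tested probe sets, with that p not adjusted for the number of probe sets. A second Nipal4 probe set (1447041_at) read 4.08, 3.98 and 4.29, below the minimum. There null 1 lay under wild type, so the 2 probe sets did not share a direction in that array.

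Elovl4 and Cers3 build the ceramide itself. Elovl4 elongates fatty acids to the very long chains that omega-acylceramides need. Its probe set 1424306_at read 9.43 in wild type, 9.46 in null 1 and 9.98 in null 2. Null 1 was near wild type and only null 2 stood apart. The mean difference was 0.29 ± 0.32 (1.22-fold), made up of 0.036 and 0.55 in the single arrays. The other Elovl4 probe set (1451308_at), listed with the same target sequence record in the platform annotation, read 8.72, 9.01 and 9.65. It placed the arrays in the same order, with a larger difference of 0.60 ± 0.35 (1.52-fold). The mean of both probe sets differed by 0.45. Cers3 encodes the ceramide synthase that joins these fatty acids to the sphingoid base. It read 7.29 in wild type, 7.62 in null 1 and 7.61 in null 2 (1444740_at). The uncv null arrays differed by 0.015, the smallest gap among the 12 tested probe sets, and both were above wild type. The difference was 0.33 ± 0.26 (1.26-fold), and its interval from -0.31 to 0.96 spans 0.809-fold to 1.95-fold.

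**Figure D2:**
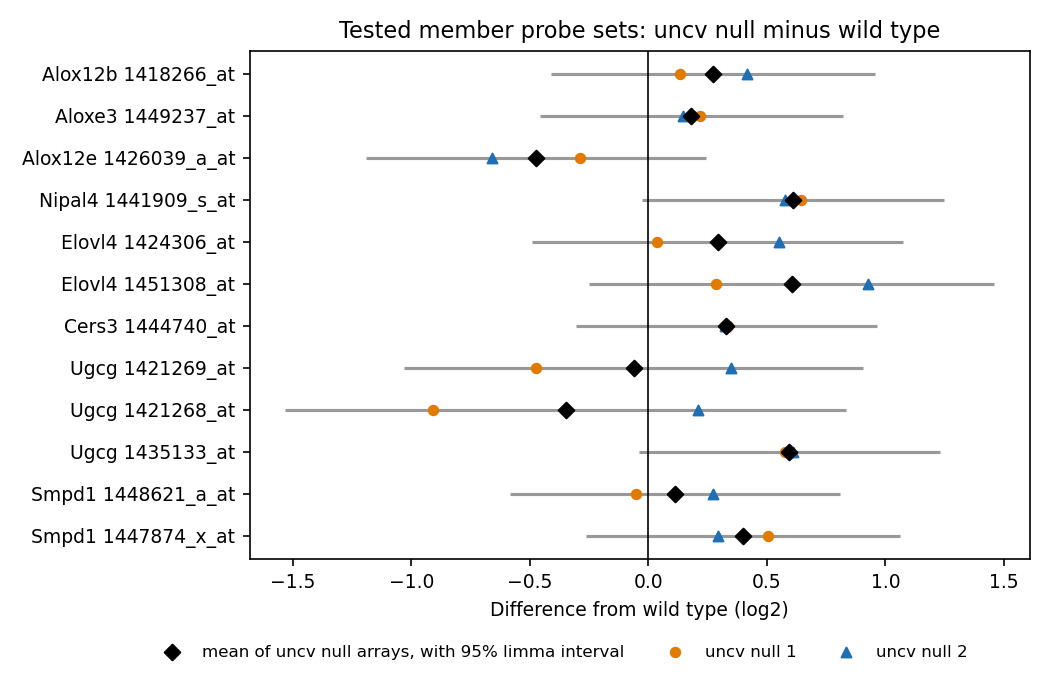
Difference from wild type on the log2 scale (horizontal axis) for the 12 tested probe sets; diamonds are the mean of the 2 null arrays with 95% limma intervals as grey bars, circles null 1 and triangles null 2. All 12 intervals include 0, Alox12e lies lowest of the genes with both arrays on 1 side, and the 3 Ugcg probe sets do not share a direction.

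Ugcg encodes glucosylceramide synthase, which adds glucose to ceramide before it is packed into lamellar granules. Its 3 tested probe sets disagreed. Probe set 1421269_at read 5.90 in wild type, 5.43 in null 1 and 6.25 in null 2. Probe set 1421268_at, listed with the same target sequence record, read 6.01, 5.10 and 6.22. In both of these, null 1 was the lowest array and null 2 the highest. Their mean differences were -0.063 ± 0.39 and -0.35 ± 0.48, smaller than the gaps between the null arrays of 0.82 and 1.12. The third (1435133_at) read 5.32, 5.90 and 5.93, with both null arrays above wild type and 0.033 apart. Its difference was 0.59 ± 0.26, or 1.51-fold, with an unadjusted limma p of 0.062. With the mean of its tested probe sets, Ugcg differed by 0.061. The Ugcg transcript therefore has no settled direction here. The larger 3' excess of the Actb control in null 1 fell in the array where 2 of the 3 probe sets were lowest, and its part was not tested. The remaining probe set (1439863_at) read 2.92, 3.00 and 3.10, below the minimum.

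Abca12, the lipid transporter that fills lamellar granules and is altered in harlequin ichthyosis, could not be assessed. Its only probe set (1453970_at) read 3.37 in wild type, 3.43 in null 1 and 3.69 in null 2. These values lie below the array medians of 3.70, 3.70 and 3.65 except in null 2, so a signal over background was not established, and it was not tested. Smpd1 encodes acid sphingomyelinase, which releases ceramide from sphingomyelin. Its main probe set (1448621_a_at) read 8.53, 8.48 and 8.81, with null 1 just under wild type and null 2 above. The difference was 0.11 ± 0.28, with single-array values of -0.050 and 0.27. The dimmer Smpd1 probe set (1447874_x_at, a type that shares sequence with other transcripts) had a mean of 5.02, just over the minimum. It read 4.75, 5.26 and 5.05, above wild type in both null arrays, with a difference of 0.40 ± 0.27. The mean of both probe sets differed by 0.26.

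Counted by probe set, 8 of the 12 tested were above wild type in both null arrays, beside 34.9% of all tested probe sets, 1 was below in both, beside 28.2%, and 3 were split. The 8 include the dimmer Smpd1 probe set, which read 4.75 in wild type and reached the minimum of 5 only through the null arrays. They also include both Elovl4 probe sets, so the count adds no support beyond the count by gene. The mean difference was larger than the gap between the null arrays in 4 of the 8 genes, beside 42.5% of all tested genes. Those 4 were Aloxe3, Alox12e, Nipal4 and Cers3. Null 2 was the array farther from wild type in 4 of the 8 genes.

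**Figure D3:**
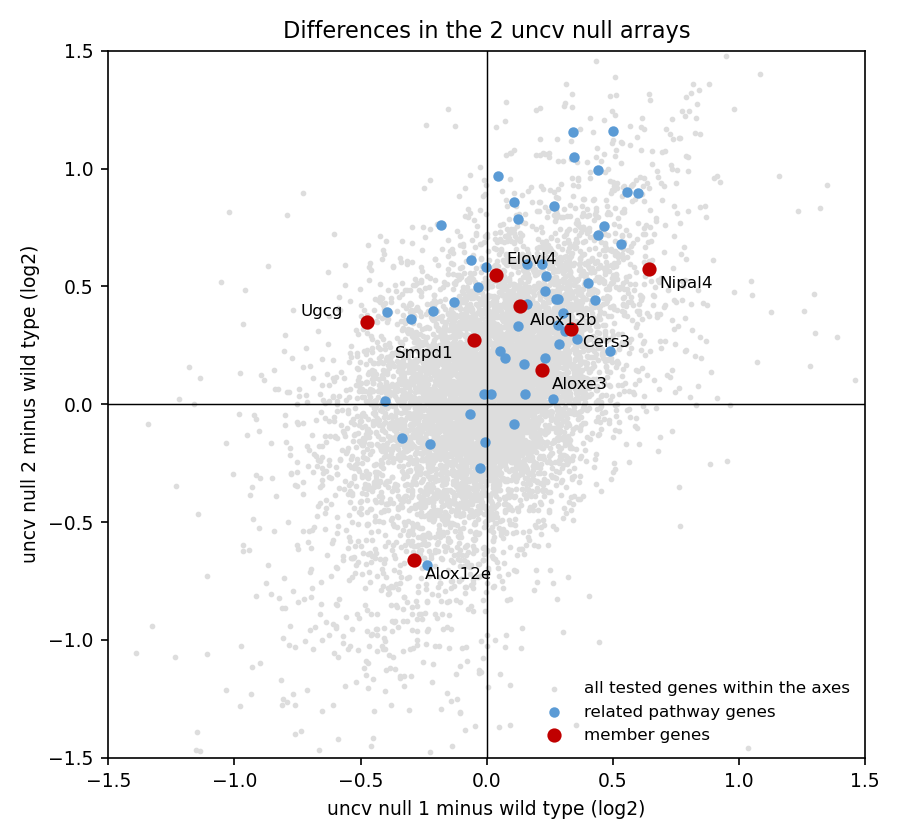
Difference from wild type in null 1 (horizontal axis) and null 2 (vertical axis), both on the log2 scale, for the 8 tested member genes (red, named), 53 related pathway genes (blue) and the 8357 of 8456 tested genes within 1.5 units on both axes (grey). Both axes share the wild type array, which by itself places points along the rising diagonal; 5 member genes lie in the upper right quadrant and Alox12e alone in the lower left.

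Genes of this and related lipid pathways were read from a list of 66 names, of which 62 had a probe set paired with that symbol alone and 53 were tested. Not each of them has a known step in making omega-acylceramides, for example Alox5ap and Hacd1, so the counts do not describe that pathway alone. Of these 53, 36 were higher and 6 lower in both null arrays, and 11 were split, beside the background of 38.8% and 26.4% given above. With null 2 left out, 16 of the 53 were lower, beside 46.5% of all tested genes in that setting. Their median difference was 0.29, with 0.16 in null 1 and 0.43 in null 2. By limma 0 of the 53 passed (smallest adjusted p = 0.9996), and 2 had an unadjusted p under 0.05, beside 2.9% of all tested genes. Those 2 were Cyp4f39 and Elovl6.

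The group listed under omega-hydroxylation and acylation, steps between the elongated fatty acid and omega-acylceramide, had the highest median of the 6 related pathway groups. Not each gene listed there is particular to those steps. All 5 tested genes of omega-hydroxylation and acylation exceeded wild type in both arrays, and their median was 0.58 (0.44 in null 1 and 0.72 in null 2). For this and the other groups, the share over all tested genes was 38.8% higher and 26.4% lower in both. Cyp4f39, the mouse counterpart of the fatty acid omega-hydroxylase CYP4F22, read 6.40 in wild type, 6.999 in null 1 and 7.30 in null 2. Its difference was 0.75 ± 0.28, with an unadjusted limma p of 0.037. Slc27a4, a fatty acid transport protein and acyl-CoA synthetase, read 8.06, 8.52 and 8.81. Abhd5, the lipase co-activator that assists Pnpla1, read 7.38, 7.82 and 8.10. In each of these 3 genes wild type was lowest and null 2 highest. Pnpla1, the enzyme that transfers linoleate onto the omega-hydroxyl group, differed by 0.44 ± 0.26. The remaining gene, Slc27a1, a fatty acid transport protein not particular to these steps, read 6.10, 6.26 and 6.70, with a difference of 0.38 ± 0.30.

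Among 11 tested genes of fatty acid elongation, 6 were higher and 2 lower than wild type in both (group median 0.29, or 0.12 in null 1 and 0.45 in null 2). Elovl6, which elongates saturated and monounsaturated chains, read 8.88, 9.44 and 9.78 in wild type, null 1 and null 2, with an unadjusted limma p of 0.044. Elovl7 read 8.06, 8.40 and 9.10, so that null 2 was well above both others. Hacd1, a dehydratase of the elongation cycle known best from muscle, read 8.41, 8.17 and 7.73, lowest in null 2.

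Of 12 tested genes of sphingoid base and ceramide synthesis, 8 were higher and 1 lower than wild type in both (group median 0.23, or 0.13 in null 1 and 0.40 in null 2). Degs2, which hydroxylates the sphingoid base to the phytoceramide form, read 5.95, 6.45 and 7.10. Fa2h, the fatty acid 2-hydroxylase, read 7.85, 8.39 and 8.54. Sptlc2, a subunit of serine palmitoyltransferase, the entry enzyme of the pathway, read 6.36, 6.63 and 7.20. All 3 had wild type as the lowest array.

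Glucosylceramide and sphingomyelin turnover had 12 tested genes, 9 higher and 2 lower than wild type in both (group median 0.31, or 0.26 in null 1 and 0.25 in null 2). Gltp, a glycolipid transfer protein, read 10.42, 10.83 and 10.94. The non-lysosomal glucosylceramidase Gba2 read 5.59, 5.83 and 6.13, and the ceramidase Asah2 read 5.88, 6.16 and 6.33. Wild type was again the lowest array in each.

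The 5 tested lipoxygenase and hydroperoxide genes had a median of 0.28, 2 being higher and 1 lower in both. That median was -0.027 in null 1 and 0.61 in null 2, so its sign turned with null 2 left out. Ephx2, a soluble epoxide hydrolase, read 5.03, 5.38 and 6.19, and Alox5ap, the 5-lipoxygenase activating protein of myeloid cells, read 6.17, 6.61 and 7.17. Ephx3, an epoxide hydrolase that acts on the lipoxygenase products, read 6.84, 6.78 and 7.45. Sdr9c7, the dehydrogenase that follows Aloxe3, read 5.87, 5.47 and 6.26. In Ephx3 and Sdr9c7 wild type lay between the null arrays. Of 8 tested lamellar granule trafficking and other ichthyosis genes, 6 were higher and 0 lower than wild type in both (group median 0.25, or 0.15 in null 1 and 0.34 in null 2). Abca1, a lipid transporter related to Abca12, read 8.10, 8.33 and 8.58, Aldh3a2, the fatty aldehyde dehydrogenase of Sjögren-Larsson syndrome, 5.68, 5.84 and 6.11, and the cholesterol sulfotransferase Sult2b1 8.40, 8.40 and 8.99. Only Sult2b1 of these 3 was level between wild type and null 1.

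**Figure D4:**
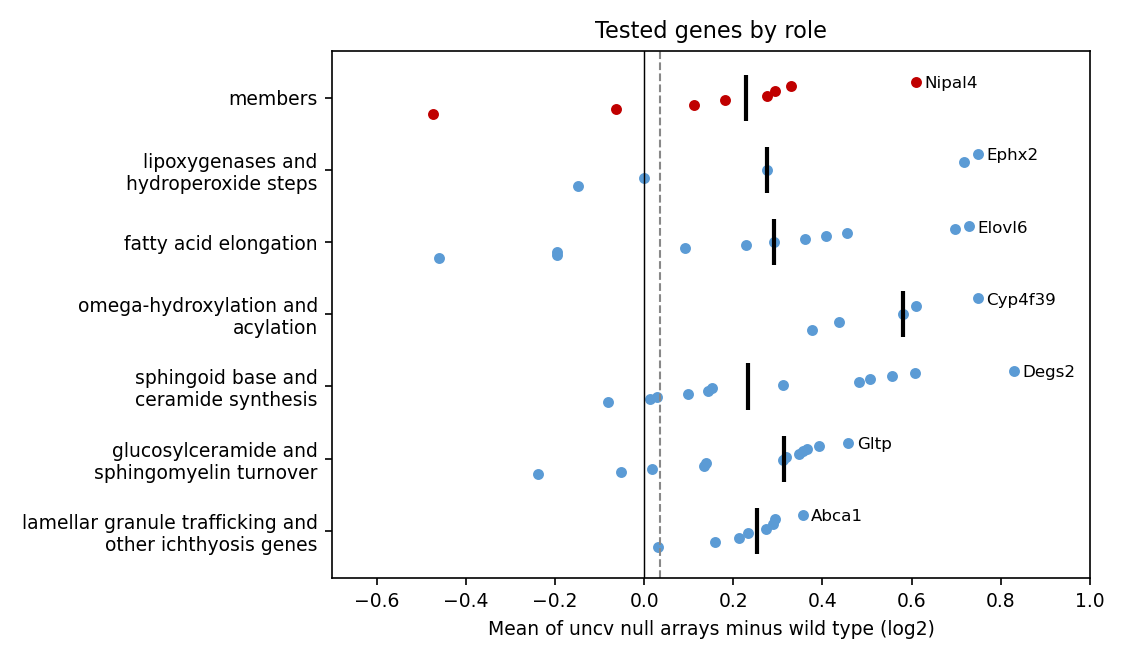
Mean of the null arrays minus wild type on the log2 scale (horizontal axis) for each tested gene, by role; red points are the 8 member genes, blue points the related genes, black bars the group medians, and the dashed line the median of all tested genes (0.036). Height within a row has no meaning; the gene with the largest difference in size is named in each row, and the 5 genes of omega-hydroxylation and acylation all lie right of 0.

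The related genes nearest to the members' median pair of 0.084 and 0.33 were Elovl5, Acer3, Aldh3a2, Asah1 and Rab11a, ranked by the distance between pairs of differences over the 2 null arrays. Elovl5, an elongase of polyunsaturated fatty acids, differed by 0.12 and 0.33, and Acer3, an alkaline ceramidase, by 0.054 and 0.22. With 3 arrays such a likeness describes these arrays only.

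Markers of the cell layers and of other cell types were read beside the ceramide genes. Their part in the values of members and related genes was not tested. The marker counts stand beside 38.8% of all tested genes higher and 26.4% lower in both null arrays. The granular layer, where omega-acylceramides are mainly made, had 9 of 10 listed markers tested, 5 higher and 0 lower in both null arrays. Its median difference was 0.18, and its summed level (log2 of the summed linear values) was 13.82 in wild type, 13.86 in null 1 and 13.92 in null 2. Of its markers, Klk7 differed by 0.67, Ivl by 0.46, Dsg1a and Tgm3 by 0.20 each and Asprv1 by 0.18, all higher in both, while Lor at -0.034, Sbsn at -0.033, Casp14 at -0.013 and Hrnr at -0.0028 were split. The 4 spinous markers were all split, with a median of 0.0084 and summed levels of 13.77, 13.69 and 13.87. Of 5 basal markers 4 were higher and 0 lower, with summed levels of 12.59, 12.64 and 12.97. Sebaceous markers, from a gland that also expresses several lipid enzymes of the related list, had 2 of 4 tested genes higher, 0 lower and summed levels of 10.36, 10.31 and 10.86. White adipocyte markers were higher in all 5 tested genes of 7 listed, with summed levels of 11.55, 11.85 and 12.16. Macrophage markers were higher in 5 of 7 and split in 2, Csf1r and Cd68, with summed levels of 10.32, 10.52 and 10.55. A summed level is weighted to the brightest genes of its list. Among macrophage markers that is Csf1r (9.37, 9.47 and 9.12), and among sebaceous markers Mgst1 (9.96, 9.86 and 10.15). Skeletal muscle markers were lower in 6 of 6, with summed levels of 13.68, 13.20 and 13.02. The 5 hair shaft markers were all split, with summed levels of 11.53, 11.07 and 11.65. Null 2 had the highest summed level of the 3 arrays for every list here except muscle, where it had the lowest. By limma, 0 markers of these lists passed the adjusted threshold. An unadjusted p under 0.05 was found for 3, beside 2.9% of all tested genes, namely the basal integrin Itgb4 and the muscle genes Tnnt3 and Mylpf.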

How the data were processed

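The authors deposited log2 expression values made with RMA, a method named in the submitters' processing notes that removes background, normalizes between arrays and summarises each probe set. Its software is not given in the sources used here. RMA brings the arrays to a common distribution, which hides any shift shared by all transcripts. The extraction reagent differs between the labels' protocol and the series' design text. The table held 45101 probe sets, of which 64 were controls, 34945 had 1 gene symbol, 932 several and 9160 none. Entrez identifiers of 34741 matched the reference gene table.

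Groups and replicate numbers came from the sample titles. The labels number the uncv null samples separately and the design text describes them as mice, and no spread between wild type mice could be measured. Differences were fitted with limma 3.58.1 (R 4.3.3), using lmFit and eBayes without trend at a threshold of 0.05, with 1 residual and 4.75 prior degrees of freedom, so that the spread behind each p-value comes mostly from all probe sets and otherwise from the 2 null arrays. The procedure was tested on simulated data. There it called 2.6% of the probe sets given a difference of 1 log2 unit and 71.4% of those given 2 units. Differences under 1 unit, as in all tested member probe sets, were not tested in this way. Members, gene lists and tests were chosen with earlier results of these data known. By rule, all members were named, and in each related list the 3 genes with the largest mean difference and the 5 nearest to the members. Further names (Alox12, Pnpla1, Slc27a1, Sdr9c7, genes below the minimum and single markers) were chosen after their values were seen. Tables were processed with Python 3.11.15. Alternatives were other minimums, normalizations, probe set rules, a variance trend and omission of either null array. The number of arrays limits the precision.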

Additional observations from a re-analysis of the deposited data

How the results depend on the processing

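Over no minimum or a minimum mean of 7, median centring, quantile or cyclic loess normalization, averaging a gene's probe sets, and an intensity trend, limma called 0 member and 0 related genes in each. The smallest limma adjusted p over all tested genes ran from 0.38 with cyclic loess to 0.9999 with no minimum. No tested gene was therefore called in these settings, and the 0 is not particular to the members. With 1 null array left out, 1 array stands against 1, no residual degree of freedom remains and no test was possible. The median over member genes stayed positive, from 0.084 to 0.33 with 1 array left out and from 0.19 to 0.28 in the other settings. With a minimum of 7, 4 member genes were tested, 3 of them higher and 0 lower, and 33 related genes, 20 of them higher, because fewer genes enter. With 1 array left out, genes on each side of wild type in the remaining array were counted, which gave 5 to 7 member genes higher, 1 to 3 lower, and 37 to 46 related genes higher, 7 to 16 lower, beside 53.5% to 58.8% of all tested genes higher and 41.2% to 46.5% lower. Ugcg turned to 0.061 with the mean of probe sets and ran from -0.47 to 0.35 with 1 array left out, and Smpd1 ran from -0.050 to 0.27; the cause was not tested. All other member genes tested kept their direction in each setting. Scaling moved the median of all tested genes from 0.036 to between 0.0093 and 0.022. No paired analysis was possible because the wild type group has 1 sample. Dim probe sets such as that of Abca12 have no detection call here.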

Other observations

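Of the 62 related genes with a probe set, 9 fell below the minimum mean and were not tested. Sptssb, a small subunit that sets the chain length used by serine palmitoyltransferase, read 4.94, 3.54 and 4.52 in wild type, null 1 and null 2, so both null arrays were below wild type, null 1 most. Alox5, the lipoxygenase of leukotriene synthesis, read 4.597, 4.996 and 4.88, and Acer2, a Golgi ceramidase, 4.68, 4.83 and 5.26. Alox8, the neighbour of Alox12b on chromosome 11, read 3.28, 3.04 and 3.26, and Alox15, the neighbour of Alox12e, 3.03, 3.25 and 2.92, all below the array medians.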
